A study of Mus musculus with 20 samples.

Results

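Cluster 13 is 1 of the 14 cell clusters into which the study sorted single cells of the mouse thoracic spinal cord, and the study named it leptomeningeal cells with Mgp as its marker. Its members were taken by the deposited cluster number of each cell across all 6 libraries, which gave 134 of 21016 cells (0.638%). The question asked of these cells was what they expressed, how they differed from cluster 12, the other stromal cluster, and how they differed after spinal cord injury from sham surgery.

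The meninges are the membranes around the brain and spinal cord. Beneath the dura, the arachnoid carries a cell layer sealed by junctions and stocked with membrane carriers, and under it the fluid space and the pia are lined and crossed by fibroblasts that deposit collagen and basement membrane. Meningeal cells are also known as a source of retinoic acid and of insulin-like growth factor 2 (IGF2), and meningeal and perivascular fibroblasts take part in the scar that forms after spinal cord injury.

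The tissue came from female C57BL/6J mice aged 8 to 10 weeks that ate vehicle chow or chow with 1200 ppm PLX5622, a CSF1R inhibitor that depletes microglia, from 2 weeks before surgery. Sham mice had a T9 laminectomy and injured mice a T9 laminectomy with a 75 kdyne contusion, and the cells were collected 7 or 28 days post-injury (dpi); the sham libraries carry a label that names both times. A 1 cm piece of cord, with its meninges and not perfused, was dissociated and cleared of myelin and dead cells. Each of the 6 conditions was 1 library made from a pool of 3 to 4 mice, so no difference between libraries has a replicate check and no test between them was possible. Levels are summed unique molecular identifiers (UMIs) of the cluster's cells in a library, given as CPM, the UMIs of a gene per 1000000 UMIs of those cells, and every interval is an exact 95% interval that covers counting error only, with the intervals of log2 ratios in square brackets.

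Depth differed between the libraries. On vehicle, cluster 13 held 27 cells in the sham library, 9 at 7 dpi and 64 at 28 dpi, with median UMI counts of 11409, 3463 and 2590. On PLX5622 it held 14, 12 and 8 cells with medians of 17428, 6781 and 6238. The deepest cell gave 6.22% of the cluster's UMIs at 28 dpi on vehicle and 17.0% to 29.5% in the other 5 libraries. Any pair of libraries shared at most 21 cell barcodes, and 2 barcodes were shared with both cells in cluster 13. The study states a window of 200 to 3000 genes per cell, while the deposited cells had 199 to 8982 genes, and 40 of the 134 cells had more than 3000.

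The label was compared with lists of cell type markers. Of 10 leptomeningeal markers, 5 were higher in cluster 13 than in any of the other 13 clusters: Mgp, Ptgds, Slc47a1, Igf2 and Crabp2. The summed level of that list was 23396 CPM in cluster 13 and 3934 CPM in cluster 12, most of it Mgp, and Slc6a13 and Aldh1a2 had no UMI in the 134 cells. Dural fibroblast markers had their highest level in the same cluster for 6 of 8 genes (Fxyd5, Foxc2, Smoc2, Mgp, Slc47a1 and Ndrg1), with Kcnj8 and Ccl11 at 0. The dural list summed to 26172 CPM against 3821 CPM in cluster 12, again most of it Mgp. Mgp and Slc47a1 belong to both the leptomeningeal and the dural list. Arachnoid barrier markers summed to 1393 CPM against 484 CPM in cluster 12 and were highest in cluster 13 for 5 of 10 genes, among them the adhesion protein E-cadherin (Cdh1), the tight junction protein claudin 11 (Cldn11) and the gap junction protein connexin 26 (Gjb2), with Krt8 at 0.

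The lists of pial and general fibroblast markers summed to lower levels than in cluster 12. None of 8 pial fibroblast markers and none of 10 pan-fibroblast markers had its highest level in cluster 13, and the pan-fibroblast list summed to 10299 CPM there and 38985 CPM in cluster 12. The markers therefore spread over leptomeningeal, arachnoid barrier and dural lists, and the cells are called cluster 13 here. Mural and endothelial markers were low: the pericyte list summed to 92.5 CPM with 6 of 10 members at 0 (Rgs5, Kcnj8, Abcc9, Notch3, Ndufa4l2 and Atp13a5), the smooth muscle list to 41.0 CPM with Acta2, Cnn1 and Lmod1 at 0, and the endothelial list to 133 CPM against 16514 CPM in cluster 2, the endothelial cluster.

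**Figure D1:**
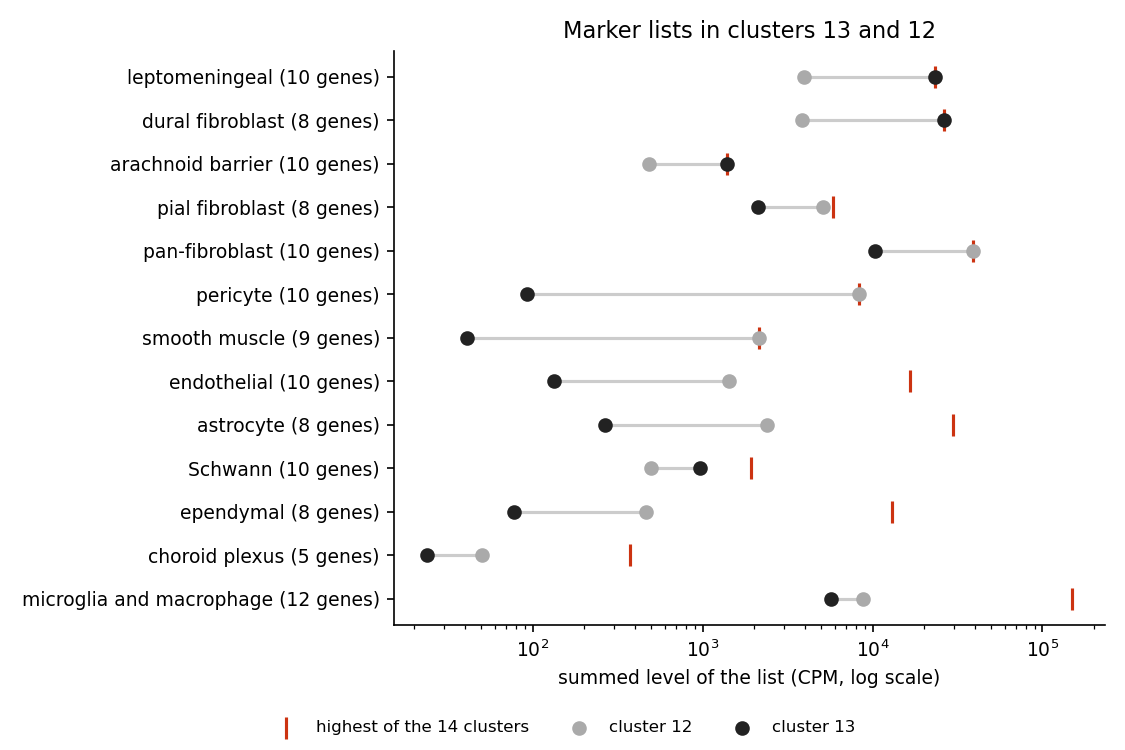
Summed level of 13 cell type marker lists, in CPM on a log axis, for cluster 13 (black), cluster 12 (grey) and the highest of the 14 clusters (red tick). The leptomeningeal, dural fibroblast and arachnoid barrier lists were highest in cluster 13, and the pan-fibroblast list was lower there (10299 CPM) than in cluster 12 (38985 CPM). Mgp and Slc47a1 belong to both the leptomeningeal and the dural list.

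The 20 genes with the highest ratio of cluster 13 to the mean of the other clusters describe what set these cells apart. Since the clusters were made from the same cells, these ratios are a description. They included Rspo3, a secreted enhancer of Wnt signalling found in 79.1% of the 134 cells, Crabp2, a retinoic acid binding protein found in 82.1%, and Slc47a1, an exporter of organic cations found in 87.3%. Krtdap, named for keratinocyte differentiation, was found in 53.0% and Cdh1 in 50.7%. The collagens Col25a1 and Col8a1, the retinol receptor Stra6, the matricellular protein Smoc2, the anion exchanger Slc26a7, the vitamin carrier Slc5a6 and the transcription factor Foxc2 were also in this group.

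Cluster 12 was the cluster with the highest pan-fibroblast, pericyte and smooth muscle lists, and a comparison with it shows which stromal genes were higher or lower in cluster 13. Over all libraries, 5234 genes had at least 50 UMIs in both clusters together. Of these, 594 (11.3%) were at least 2-fold higher and 419 (8.01%) at least 2-fold lower in cluster 13, with a median log2 ratio of 0.11. Mgp, matrix Gla protein, an inhibitor of calcification, stood at 19703 CPM in cluster 13 and 2655 CPM in cluster 12, a log2 ratio of 2.89 [2.82 to 2.97], and it was higher in cluster 13 in 6 of 6 libraries.

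Membrane carriers were often higher. Of 16 barrier carriers, pumps and channels with enough UMIs, 10 were at least 2-fold higher and 6 at least 2-fold lower, with a median log2 ratio of 2.94. Slc47a1 stood at 1238 CPM against 43.0 CPM (log2 ratio 4.85 [4.27 to 5.49]). The sodium pump subunit Atp1b1 had a log2 ratio of 6.09 [5.25 to 7.10], the sulfate carrier Slc26a2 of 5.75 [4.52 to 7.38] and the amino acid carrier Slc38a2 of 4.24 [3.90 to 4.60]. The sodium bicarbonate carrier Slc4a10 was 8.84-fold higher and the efflux pump Abcg2 6.62-fold higher. The lower members included the carriers Slc6a13, Slc22a8, Abca8a and Abca9 and the potassium channel gene Kcnj8, so the list did not move as 1 block.

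Junction proteins were higher for 6 and lower for 1 of 12 genes (median 0.97). Cdh1 had a log2 ratio of 5.12 [3.55 to 7.41], Cldn11 of 3.81 [3.25 to 4.44] and Gjb2 of 2.04 [1.13 to 3.10], while the endothelial claudin Cldn5 was the lower one. Proteins that handle retinoids were higher for 3 of 6 genes, among them Crabp2 at 5.28 [4.43 to 6.28] and Stra6 at 5.32 [4.19 to 6.78]. Rbp4, which carries retinol in plasma, was lower. Of 4 prostaglandin genes, Ptgds, the prostaglandin D2 synthase, was higher at 3.09 [2.72 to 3.47], Ptgis and Ptges were also higher and Ptgs1 was lower.

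Signalling genes were mixed. Of 17 genes of TGF-beta and BMP signalling 6 were higher and 4 lower. The ligand Bmp4 was 8.11-fold higher and its target Id1 17.3-fold higher, with Id2, Id3, the inhibitor Smad6 and the ligand Tgfb3 also past 2-fold, while the receptors Tgfbr2 and Tgfbr3 were lower. Rspo3 stood at 795 CPM in cluster 13 and had 1 UMI in cluster 12, and the Wnt antagonist Sfrp1 was also higher. Of 16 meningeal transcription factors 5 were higher (among them Foxc2, Foxd1, Foxp1 and Foxp2) and 3 lower (Prrx1, Ebf1 and Ebf2). The peptide receptor subunit Ramp1 and tissue factor F3, which starts clotting, were 28.0-fold and 36.0-fold higher.

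Many matrix genes were lower. Decorin (Dcn), a small leucine-rich proteoglycan that binds collagen, stood at 1769 CPM against 14175 CPM in cluster 12 (log2 ratio -3.00 [-3.08 to -2.93]). Lumican (Lum), of the same family, stood at 795 CPM in cluster 12 and had 1 UMI in the 134 cells of cluster 13. Basement membrane genes were lower for 10 of 11, with a median log2 ratio of -2.50 and none higher, matrix glycoproteins for 11 of 19 with 3 higher, and pan-fibroblast markers for 8 of 10 with none higher.

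Collagens split between the clusters. Of 12 fibrillar and network collagens 6 were lower, among them Col1a1 (-1.25 [-1.38 to -1.12]) and Col3a1 (-2.75 [-2.86 to -2.65]), and 3 were higher, of which Col8a1 reached 3.51 [3.09 to 3.96] and Col12a1 2.19 [1.86 to 2.53]. Thrombospondin 1 (Thbs1), an adhesive glycoprotein, was 33.4-fold higher. Complement genes were lower for 5 of 9, with clusterin (Clu), which restrains complement, 25.1-fold higher. Heat shock genes passed 2-fold in 0 of 10, beside 11.3% of all genes higher and 8.01% lower.

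**Figure D2:**
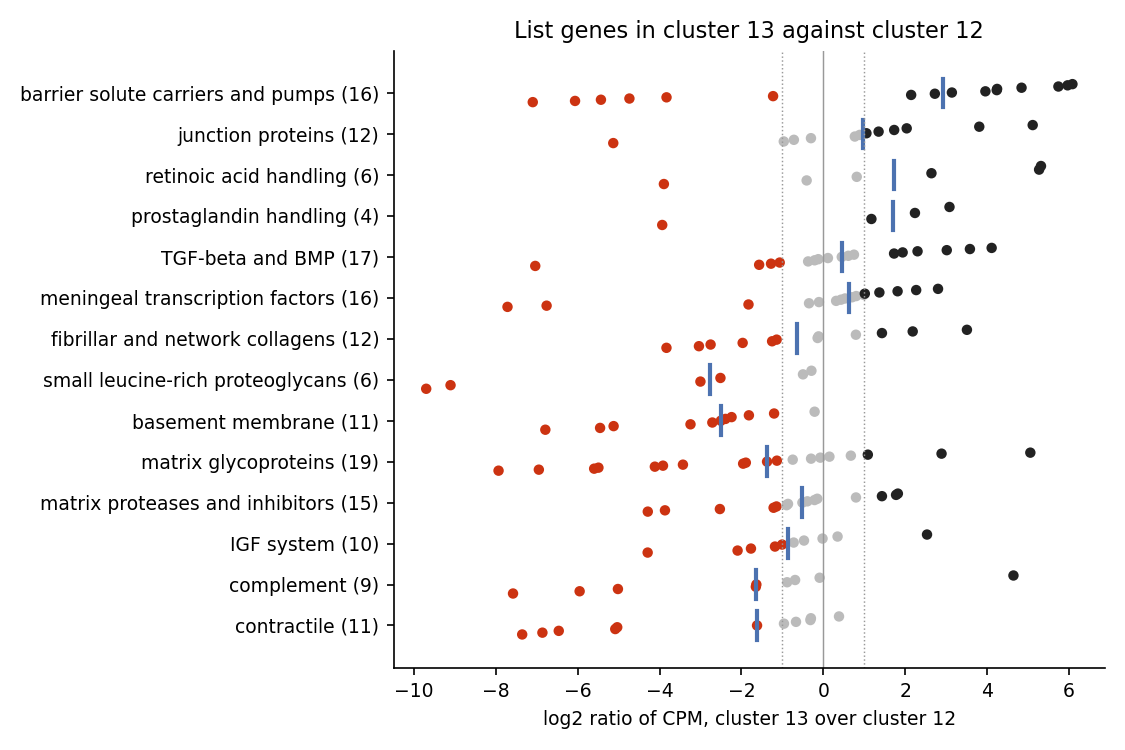
Log2 ratio of cluster 13 over cluster 12, all libraries summed, for the genes of 14 functional lists with at least 50 UMIs; each point is a gene, black for at least 2-fold higher, red for at least 2-fold lower, and the blue bar is the list's median. The barrier carriers have a median of 2.94 and the basement membrane genes one of -2.50.

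The share of cells in cluster 13 was lower in the injured libraries. Of the sham vehicle cells 1.50% fell in it (interval 0.994% to 2.18%), compared with 0.121% (0.0553% to 0.230%) for 7 dpi and 0.650% (0.501% to 0.829%) for 28 dpi vehicle cells, and no pair of these intervals overlapped. Of the sham PLX5622 cells 2.85% fell in it (1.56% to 4.73%), compared with 2.38% (1.24% to 4.12%) for 7 dpi and 0.851% (0.368% to 1.67%) for 28 dpi PLX5622 cells, and all of these intervals overlapped. The intervals cover counting error only, with 1 pool of mice behind each library. Cluster 12 had the same order on vehicle, at 2.28%, 0.269% and 0.670%, and there were 0.659, 0.450 and 0.970 cluster 13 cells per cluster 12 cell. With clusters 0 and 1, the microglia and macrophage clusters, left out of the total, the log2 ratio of the 28 dpi share to the sham share on vehicle moved from -1.21 to -0.21. The other libraries were not compared in this way. A share says what fraction of the captured cells fell in the cluster, and how many such cells the tissue held was not measured.

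**Figure D3:**
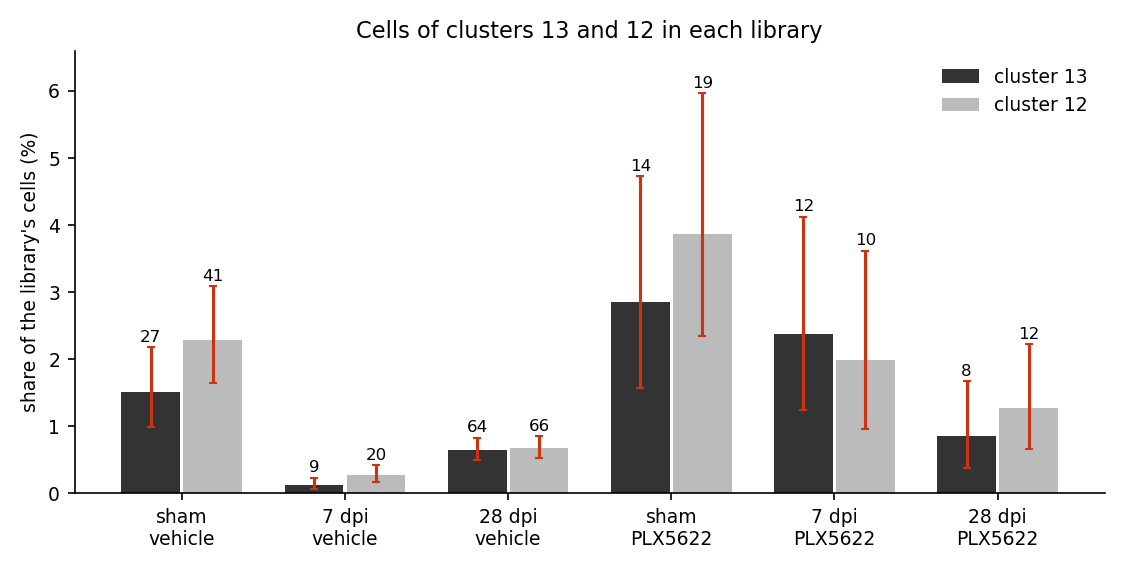
Share of all cells of a library that fell in cluster 13 (dark bars) and cluster 12 (grey bars), in percent, with exact 95% binomial intervals and the cell number above each bar. Both shares were lowest at 7 dpi on vehicle (0.121% and 0.269%).

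Several of the genes that set cluster 13 apart had similar levels in the 6 libraries. Mgp stood at 15072, 23082 and 18441 CPM in sham, 7 dpi and 28 dpi on vehicle and at 23104, 24400.2 and 21179 CPM on PLX5622, and it had a UMI in each of the 134 cells. Crabp2 stood at 689, 841 and 604 CPM on vehicle and 902, 777 and 850.1 CPM on PLX5622. Slc4a10 stood at 917, 716 and 969 CPM and 979, 851 and 899 CPM. The highest of the 6 libraries was less than 2-fold above the lowest for each of these 3 genes.

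Rspo3 (612, 592 and 672 CPM on vehicle, 1108, 704 and 583 CPM on PLX5622) and Fxyd5, a regulator of the sodium pump (2582, 2523 and 2167 CPM and 2592, 2153 and 2574 CPM), also varied by less than 2-fold. Slc47a1 was less even, at 1541, 498 and 792 CPM on vehicle and 1276, 1281 and 972 CPM on PLX5622, lowest at 7 dpi on vehicle.

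The comparison across all genes was made between the 28 dpi and sham vehicle libraries, the pair with at least 20 cluster 13 cells on each side. Of 1961 genes, 74 (3.77%) were at least 2-fold higher and 186 (9.48%) at least 2-fold lower at 28 dpi, with a median log2 ratio of -0.15. Of the 158 genes among them that belong to the marker and functional lists, 19 were higher and 40 lower (median -0.39). Size factors from edgeR (TMM) and DESeq2 moved every ratio of this comparison up by 0.14 and 0.18, which gave 96 higher and 139 lower, and 100 higher and 134 lower. Cells at 28 dpi were shallower, so values from cells under 5000 UMIs (6 cells in sham and 56 at 28 dpi) stand beside the main ones for some of the genes named. In those cells the balance was the other way, with 106 of 455 genes (23.3%) at least 2-fold higher and 26 (5.71%) lower. That choice was made after the data were seen, and whether depth set any of the differences was not tested.

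The proteoglycan Dcn was lower at 28 dpi. It stood at 3735, 1339 and 594 CPM in sham, 7 dpi and 28 dpi on vehicle, and at 682, 1954 and 267 CPM on PLX5622. In the sham vehicle library its 1263 UMIs stood beside 1 UMI of Lum. The sham vehicle library was the highest of the 6 and the 28 dpi library the lowest on each diet. The log2 ratio of 28 dpi to sham on vehicle was -2.65 [-2.94 to -2.38], or 6.29-fold lower, and -2.05 in cells under 5000 UMIs. In cluster 12, Dcn stood at 22034, 2209 and 10192 CPM on vehicle and 7066, 13470.2 and 7495 CPM on PLX5622, so its 28 dpi vehicle level there was also below sham, by less. The make-up of cluster 12 also differed on vehicle. Thinned to 1000 UMIs, 93.5% of its sham and 62.2% of its 28 dpi cells had pan-fibroblast UMIs, and 41.9% and 78.4% had pericyte UMIs. What part this had in the cluster 12 levels given here and below was not tested.

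The insulin-like growth factor (IGF) genes were lower for 3 of 5. Igfbp5, an IGF binding protein, stood at 13316, 3551 and 2297 CPM on vehicle and 4722, 3277 and 3085 CPM on PLX5622, with sham vehicle the highest library and a log2 ratio of -2.54 [-2.68 to -2.39], or -0.98 in cells under 5000 UMIs. The same gene in cluster 12 stood at 18271, 720.2 and 1541 CPM on vehicle and 7582, 16783 and 471 CPM on PLX5622. Igfbp6, of the same family, had a log2 ratio of -1.06 [-1.19 to -0.92], and of -0.63 in cells under 5000 UMIs. Igf2, a growth factor, stood at 727, 561 and 104 CPM on vehicle and 374, 1418 and 146 CPM on PLX5622 (log2 ratio -2.80 [-3.54 to -2.15], and -1.94 in cells under 5000 UMIs), highest at 7 dpi on PLX5622. H19, a noncoding RNA imprinted together with Igf2, stood at 1005, 623 and 31.3 CPM and 611, 1985 and 170.0 CPM (-5.01 [-6.46 to -3.87]), with the same library highest, and it had no UMI in the 6 sham cells under 5000 UMIs. Cdkn1c, an imprinted cell cycle inhibitor, had a log2 ratio of -4.11 [-5.26 to -3.17], and of -1.51 in cells under 5000 UMIs.

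Sfrp4, a secreted Wnt antagonist, had the lowest ratio among genes with at least 5 UMIs in each library. It stood at 1363 CPM in sham and 41.7 CPM at 28 dpi on vehicle, a log2 ratio of -5.03 [-6.25 to -4.04], or -2.90 in cells under 5000 UMIs. It had no UMI at 7 dpi, where 3 UMIs would make 93.4 CPM. On PLX5622 it stood at 219.8, 147 and 146 CPM, so sham vehicle was the highest of the 6 libraries. In cluster 12, it stood at 1297, 0 and 31.9 CPM on vehicle and 422, 457 and 0 CPM on PLX5622. Dkk3, another secreted Wnt modulator, was also lower (-1.58 [-2.37 to -0.86]).

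Of 9 collagens 5 were lower and none higher (median -1.60): Col1a1, Col1a2, Col3a1, Col5a2 and Col6a3. Col1a1, a chain of type I collagen, stood at 1263, 779 and 297 CPM on vehicle and 699, 840.3 and 947 CPM on PLX5622, with a log2 ratio of -2.09 [-2.51 to -1.69] on vehicle. Col3a1 stood at 1487, 1495 and 474 CPM and 511, 1502 and 583 CPM (-1.65 [-1.99 to -1.33]), where the 28 dpi vehicle library was the lowest of the 6. For Col3a1 both 7 dpi libraries stood close to sham vehicle. In cells under 5000 UMIs, Col1a1 had a ratio of -0.69 and Col3a1 one of -0.11, and Col1a2 had one of 0.09 against -1.60 with all cells, so none of these 3 collagens was 2-fold lower there.

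Matrix proteases, cross-linkers and their inhibitors were lower for 9 of 13 and higher for 0. They include Serpinh1, a chaperone of collagen (-1.54 [-1.92 to -1.17]), the collagen cross-linkers Lox and Loxl1, the membrane protease Mmp14, and Serpinf1, a secreted antiangiogenic factor (-3.16 [-4.06 to -2.39]). Serpinf1 had a ratio of 0.61 and Serpinh1 one of -0.29 in cells under 5000 UMIs. Matrix glycoproteins were lower for 4 of 11, among them Fbln1 (-3.02 [-4.26 to -1.99], and -1.09 in cells under 5000 UMIs). Apod, a secreted lipid carrier, had a ratio of -2.76 [-3.18 to -2.37], and of 0.13 in cells under 5000 UMIs. In the cells (11 in sham and 6 at 28 dpi) with fewer than 3 UMIs of microglia and macrophage markers, Dcn (-4.11), Igfbp5 (-1.75) and Sfrp4 (-1.55) were again lower, while the ratio turned to 0.15 for Igf2, 0.34 for Col3a1, 0.60 for Col1a2, 0.12 for Igfbp6 and 0.12 for Fbln1. So few cells hold few UMIs, and a side with no UMI was set to 3 UMIs here too. Which of these ratios rest on that setting was not tested.

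Carriers and junction genes passed 2-fold in single cases, beside 9.48% of all genes lower and 3.77% higher. Of 9 carriers 2 were lower, Slc26a2 (-1.79 [-2.34 to -1.29], and -0.77 in cells under 5000 UMIs) and the efflux pump Abcb1a (-1.14 [-1.56 to -0.75]), and the list's median was -0.08. Of 8 junction genes Cdh1 was higher (1.23 [0.61 to 1.87]) and the plakoglobin gene Jup lower. Of the meningeal transcription factors, Foxc2 stood at -0.22 [-0.73 to 0.26]. In the retinoid group Stra6, which stood at 846, 592 and 193 CPM on vehicle, was 4.39-fold lower at 28 dpi and Dhrs3, which turns retinal back to retinol, 3.49-fold lower, while Crabp2 (-0.19 [-0.52 to 0.14]) stayed within 2-fold. In cells under 5000 UMIs the log2 ratios were -1.36 for Stra6, -1.925 for Dhrs3 and 0.24 for Crabp2.

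Fewer list genes were higher. Id1, a transcriptional inhibitor induced by BMP signalling, stood at 275, 1059 and 1099 CPM on vehicle and 682, 924 and 1263 CPM on PLX5622, with sham vehicle the lowest of the 6 libraries. Its log2 ratio at 28 dpi on vehicle was 2.00 [1.64 to 2.37], or 1.42 in cells under 5000 UMIs. Bmp4, the ligand, stood at 361, 1184 and 682 CPM and 679, 704 and 1433 CPM, with sham vehicle again the lowest, and a ratio of 0.92 [0.55 to 1.29] that did not reach 2-fold.

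Pleiotrophin (Ptn), a heparin-binding growth factor, stood at 334, 1246 and 1266 CPM on vehicle and 996, 1008 and 1797 CPM on PLX5622 (1.92 [1.59 to 2.26] on vehicle). Thbs1 stood at 423, 779 and 1239.8 CPM and 993, 1723 and 3619 CPM (1.55 [1.25 to 1.86]). The sham vehicle library was the lowest for both genes, and 28 dpi PLX5622 was the highest. In cells under 5000 UMIs the vehicle ratios were 1.34 for Ptn and 2.44 for Thbs1. In cluster 12, Ptn stood at 182, 1609 and 978 CPM on vehicle and 188, 568 and 943 CPM on PLX5622.

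Other genes past 2-fold were the stress chaperone Hspb1 (1.85 [1.45 to 2.27], and 2.88 in cells under 5000 UMIs), the stress gene Ndrg1 (1.21 [0.84 to 1.58]) and the collagen Col25a1 (1.53 [0.97 to 2.10], and -0.19 in cells under 5000 UMIs). Krtdap stood at 538, 2710.0 and 844 CPM on vehicle and 1008, 1155 and 1142 CPM on PLX5622, with sham vehicle the lowest and 7 dpi vehicle the highest.

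**Figure D4:**
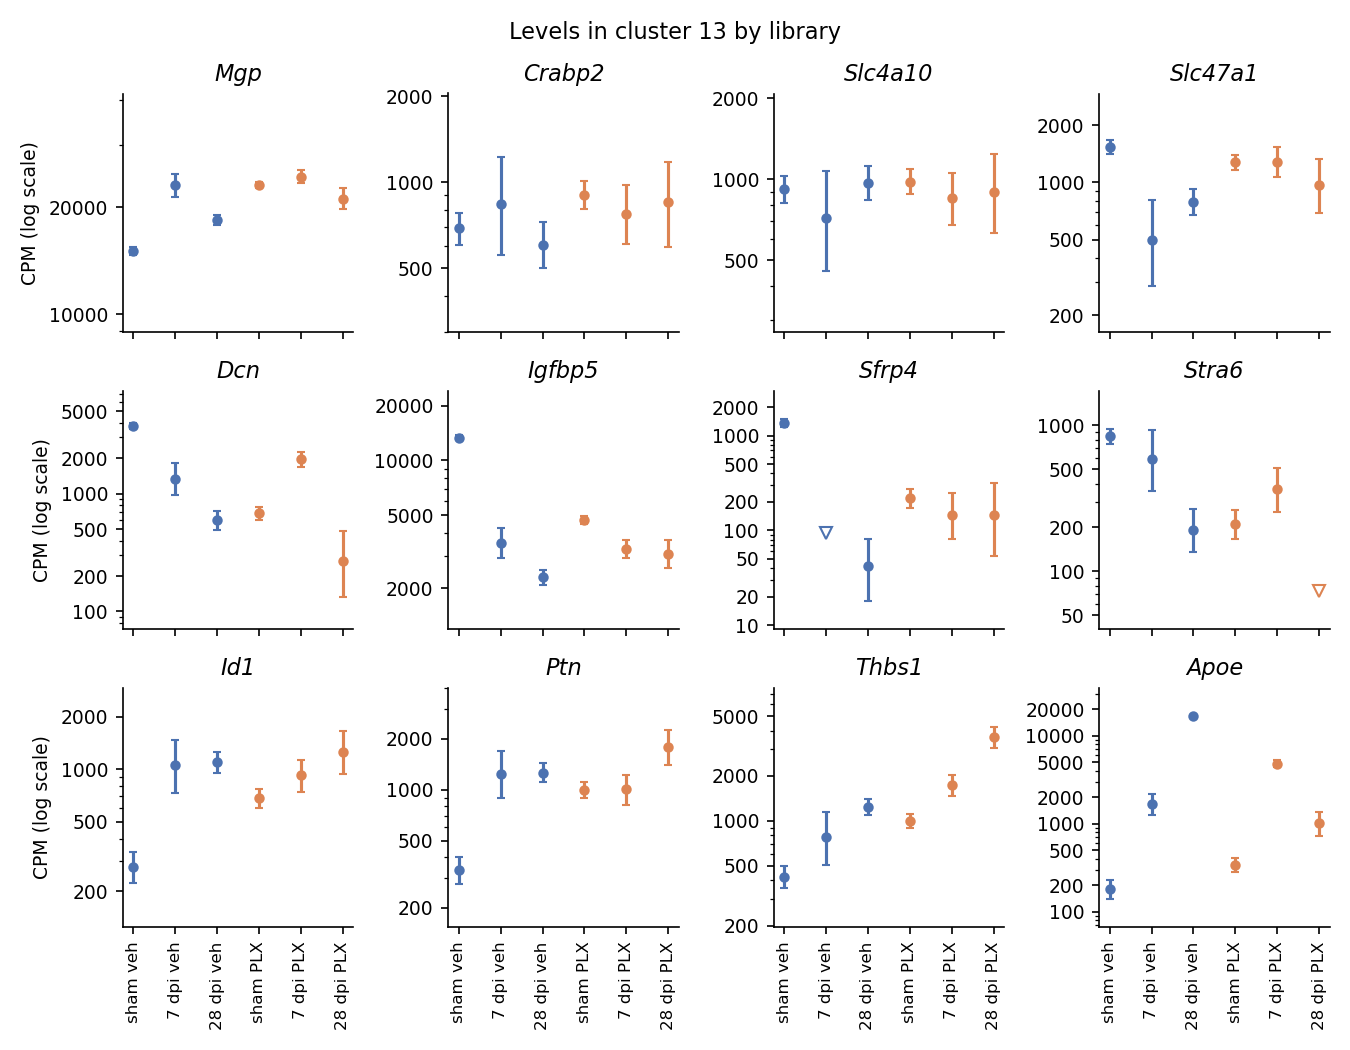
Level of 12 genes in cluster 13 in each library, in CPM on a log axis, with exact 95% Poisson intervals. Blue is vehicle and orange is PLX5622. Where no UMI was counted, an open triangle marks the level of 3 UMIs. Mgp, Crabp2 and Slc4a10 were level across libraries, Dcn, Igfbp5 and Sfrp4 were highest in sham vehicle, and Id1, Ptn and Thbs1 were lowest there.

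Many of the highest ratios at 28 dpi on vehicle belonged to microglia and macrophage genes. Apoe, a lipid carrier that phagocytes make in quantity, stood at 180.4, 1682 and 16618 CPM on vehicle and 339.7, 4832 and 1020.1 CPM on PLX5622 (log2 ratio 6.53 [6.16 to 6.92]), and the complement gene C1qa had a ratio of 4.05 [3.52 to 4.62]. In cells under 5000 UMIs the ratios were 6.26 for Apoe and 1.39 for C1qa. Of 8 microglia and macrophage markers with enough UMIs, 7 were higher and none lower. The 12 markers summed to 784, 2492 and 24395 CPM on vehicle and 360, 6901 and 3303 CPM on PLX5622, and 10, 8, 12, 3, 11 and 10 of the 12 had a UMI in those libraries in that order. In sham PLX5622 the markers at 0 were C1qa, C1qb, Csf1r, Cx3cr1, P2ry12, Tyrobp, Fcer1g, Cd68 and Gpnmb.

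The same list was summed in the endothelial cluster, within which the study described a subset of perivascular macrophages. It stood there at 3581, 33166 and 37086 CPM on vehicle and 1157, 7133 and 6236 CPM on PLX5622. How much of that level came from such a subset was not tested. Most of the list's UMIs in cluster 13 came from few cells, but UMIs of it were found widely. With each cell thinned to 1000 UMIs, 95.1% of 61 cells at 28 dpi on vehicle had one, against 37.0% of 27 in sham. Unthinned, Apoe had a UMI in 64 of 64 and 17 of 27 cells. In 8 of the 64 cells of the 28 dpi vehicle library at least 2% of the UMIs were of this list. Those 8 held 88.9% of the list's UMIs there and 23.8% of all the cluster's UMIs in that library. Scrublet called 7 of the 8 doublets, and all 10 doublets it called in cluster 13 were in this library. The number of calls was preset from each library's cell count. It was 26, 443 and 776 in sham, 7 dpi and 28 dpi on vehicle and 2, 2 and 7 on PLX5622, so few calls could fall in the small libraries. Without the cells at or above 2%, 51 of 1825 genes were at least 2-fold higher and 145 lower at 28 dpi on vehicle, and Apoe stood at 2223 CPM. What part these cells had in the other differences was not tested beyond this.

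A few genes outside the lists were also high, and they were chosen after their values were seen. Prg4, the joint lubricant lubricin, stood at 343, 685 and 1844 CPM on vehicle and 1647, 462 and 534 CPM on PLX5622 (2.43 [2.12 to 2.74]). Nov, a secreted matricellular protein, stood at 316, 592 and 995 CPM and 1564, 756 and 2599 CPM (1.65 [1.30 to 2.01]). For both genes sham vehicle was the lowest library. Hhip, which binds hedgehog ligands, had a ratio of 2.71 [1.84 to 3.68].

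At 7 dpi on vehicle, with 9 cells, list genes were compared with sham. Of 129, 12 were at least 2-fold higher and 25 lower, beside 3.98% and 15.2% of the 1383 genes with enough UMIs. Krtdap (2.33 [1.95 to 2.71]), Id1 (1.95 [1.33 to 2.53]), Ptn (1.90 [1.34 to 2.43]) and Bmp4 (1.71 [1.15 to 2.25]) were higher. The metallothioneins Mt1 and Mt2, which bind zinc and copper, were both higher, where neither passed 2-fold at 28 dpi. Igfbp5 (-1.91 [-2.19 to -1.64]), Slc47a1 (-1.63 [-2.45 to -0.91]) and Dcn (-1.48 [-1.95 to -1.04]) were lower, while Col1a1 (-0.70 [-1.34 to -0.12]) and Igf2 (-0.38 [-1.15 to 0.31]) stayed within 2-fold. TMM and DESeq2 factors moved every ratio of this comparison by -0.30 and -0.29.

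At 7 dpi on PLX5622, with 12 cells, 19 of 145 list genes were at least 2-fold higher than sham and 9 lower, beside 3.23% and 5.24% of 1641 genes. Igf2 (1.92 [1.57 to 2.28]), Loxl1 (1.93 [1.17 to 2.69]), Col3a1 (1.56 [1.23 to 1.88]) and Dcn (1.52 [1.23 to 1.80]) were higher, and 1 cell gave 37.0% of the Igf2, 58.7% of the Col3a1 and 48.4% of the Dcn UMIs of that library. Ptgds was lower (-2.88 [-3.67 to -2.18]). Apoe (3.83 [3.54 to 4.13]) had 91.7% of its UMIs in 1 cell. The 5 neutrophil markers summed to 2668 CPM there, with S100a8 and S100a9 found in 2 of the 12 cells, and their part in the other values was not tested.

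On PLX5622, 28 dpi was set against sham for list genes, with 8 and 14 cells. Of 122 list genes 7 were at least 2-fold higher and 26 lower, beside 2.9% and 12.7% of the 1412 genes with enough UMIs, and TMM and DESeq2 factors each gave 2 higher and 30 lower. Dcn had a log2 ratio of -1.35 [-2.37 to -0.49], Igf2 of -1.36 [-2.83 to -0.20] and Igfbp6 of -1.10 [-1.46 to -0.77]. Stra6 and Dhrs3 had no UMI at 28 dpi on PLX5622. With that side set to 3 UMIs, Stra6 was 2.90-fold lower and Dhrs3 2.94-fold lower.

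Thbs1 (1.86 [1.58 to 2.15]) and Bmp4 (1.08 [0.64 to 1.49]) were higher. TMM and DESeq2 factors moved every ratio of 28 dpi over sham on PLX5622 by -0.21 and -0.18, which left Bmp4 within 2-fold. Ptgds was lower (-1.43 [-2.16 to -0.79]), where on vehicle it had a ratio of 0.60 [0.35 to 0.85]. Col1a1 (0.44 [-0.09 to 0.93]) and Igfbp5 (-0.61 [-0.89 to -0.35]) stayed within 2-fold.

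The injury comparisons on the 2 diets share no library. Of the 40 list genes at least 2-fold lower at 28 dpi on vehicle, 27 had enough UMIs on PLX5622, 18 of them had the same sign, beside 62.3% of all list genes lower, and 7 were again at least 2-fold lower: Dcn, Igfbp6, Adamts1, Vim, Dhrs3, Igf2 and Stra6. Of all list genes on PLX5622, 21.3% were at least 2-fold lower. Of the 19 higher on vehicle, 9 had enough UMIs, 6 had the same sign, beside 37.7% of list genes higher, and 2 (Thbs1 and Apoe) were at least 2-fold higher, beside 5.74% of list genes, while Hspb1 was at least 2-fold lower. At 7 dpi on PLX5622, 36 of the 40 had enough UMIs and 8 were at least 2-fold higher than sham, beside 13.1% of list genes: Col3a1, Col5a2, Col6a3, Dcn, Apod, Dkk3, Igf2 and Loxl1.

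Diet was compared within sham mice, with 14 PLX5622 and 27 vehicle cells. Of 166 list genes 9 were at least 2-fold higher and 29 lower on PLX5622, beside 2.67% and 3.56% of 2583 genes. Dcn (-2.45 [-2.66 to -2.25]), Igfbp5 (-1.50 [-1.58 to -1.41]), Sfrp4 (-2.63 [-3.00 to -2.28]), Col3a1 (-1.54 [-1.80 to -1.29]) and Stra6 (-2.00 [-2.39 to -1.63]) were lower. Id1 (1.31 [0.96 to 1.67]), Ptn (1.58 [1.27 to 1.90]), Hspb1 (1.35 [0.96 to 1.75]) and Thbs1 (1.23 [0.95 to 1.52]) were higher, and Thbs1 stood at 0.38 without the deepest cell of each library.

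The sham vehicle library is also the reference of the vehicle injury comparison, and it had the highest Dcn, Igfbp5 and Sfrp4 levels in both. Interferon-stimulated genes were lower on PLX5622 for 4 of 5, with the membrane proteins Ifitm3 at -1.56 [-1.81 to -1.30] and Bst2 at -2.17 [-3.13 to -1.32]. Of 9 immediate early genes, which respond quickly to stimuli, Fos (-1.21 [-2.03 to -0.44]), Junb (-2.19 [-3.34 to -1.18]) and Egr1 (-1.56 [-2.60 to -0.62]) were lower. Carriers, junction genes and meningeal transcription factors passed 2-fold in 0 of 9, 0 of 8 and 0 of 13. Of all genes 2.67% were higher and 3.56% lower, so lists this short would hold few at that share.

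Between diets after injury few cells were compared. At 7 dpi, 11 of 72 list genes were at least 2-fold higher and 6 lower on PLX5622, beside 6.11% and 4.07% of 393 genes, with Igf2 (1.34 [0.62 to 2.14]) and Thbs1 (1.15 [0.53 to 1.81]) among the higher. At 28 dpi, 8 of 97 were higher and 17 lower, beside 3.42% and 6.69% of 732 genes. Of 7 microglia and macrophage markers 6 were lower there, Apoe at -4.03 [-4.50 to -3.59]. Of 7 collagens 4 were higher on PLX5622 (Col1a1 at 1.67 [1.05 to 2.29], Col1a2, Col6a1 and Col6a2), as were Thbs1 (1.55 [1.24 to 1.85]) and Bmp4 (1.07 [0.60 to 1.52]), while Dcn (-1.15 [-2.19 to -0.26]) was lower. TMM and DESeq2 factors moved every ratio between diets at 28 dpi by -0.33 and -0.28, which left Bmp4 within 2-fold. At 7 dpi they moved every ratio between diets by 0.27 and 0.25.

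Single cells varied within a library. Per 10000 UMIs, Mgp ranged from 86.8 to 389 with a median of 174 in the 27 sham vehicle cells, and from 29.3 to 453 with a median of 209 in the 64 cells of 28 dpi vehicle. Dcn had a UMI in 26 of 27 sham cells, with a median of 22.8 and a maximum of 157 per 10000 UMIs. At 28 dpi 26 of 64 cells had one, the median was 0 and the highest cell stood at 85.9. Sfrp4 had a UMI in 24 of 27 and 6 of 64 cells, and Igfbp5 in 27 of 27 and 60 of 64. H19 was found in 14 of 27 sham cells and in 3 of 64 at 28 dpi, and after thinning to 1000 UMIs per cell, in 6 of 27 and 2 of 61.

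Since deeper cells show more genes, each cell was also thinned to 1000 UMIs, which left out 3 of the 64 cells at 28 dpi and none of the 27 in sham on vehicle. Dcn was then found in 66.7% (46.0% to 83.5%) of 27 sham cells and 27.9% (17.1% to 40.8%) of 61 cells at 28 dpi, and Sfrp4 in 59.3% (38.8% to 77.6%) and 4.92% (1.03% to 13.7%). Those intervals did not overlap between the libraries, but the cells of a library come from 1 pool and are not replicates of a condition. In the 14 sham PLX5622 cells Dcn was found in 42.9% and Sfrp4 in 35.7%. Id1 was found in 25.9% (11.1% to 46.3%) and 57.4% (44.1% to 70.0%), where the intervals overlapped; without thinning it was found in 70.4% and 75.0%. Any small leucine-rich proteoglycan was found in 81.5% and 80.3%, and at least 3 of their UMIs in 55.6% and 21.3%. Mgp was found in all thinned cells of both libraries. In the endothelial cluster, with median depths of 1342 to 5342 UMIs and thinned alike, Mgp was found in 3.9% to 20.8% of cells over the 6 libraries, Dcn in at most 2.9% and Sfrp4 in none.

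**Figure D5:**
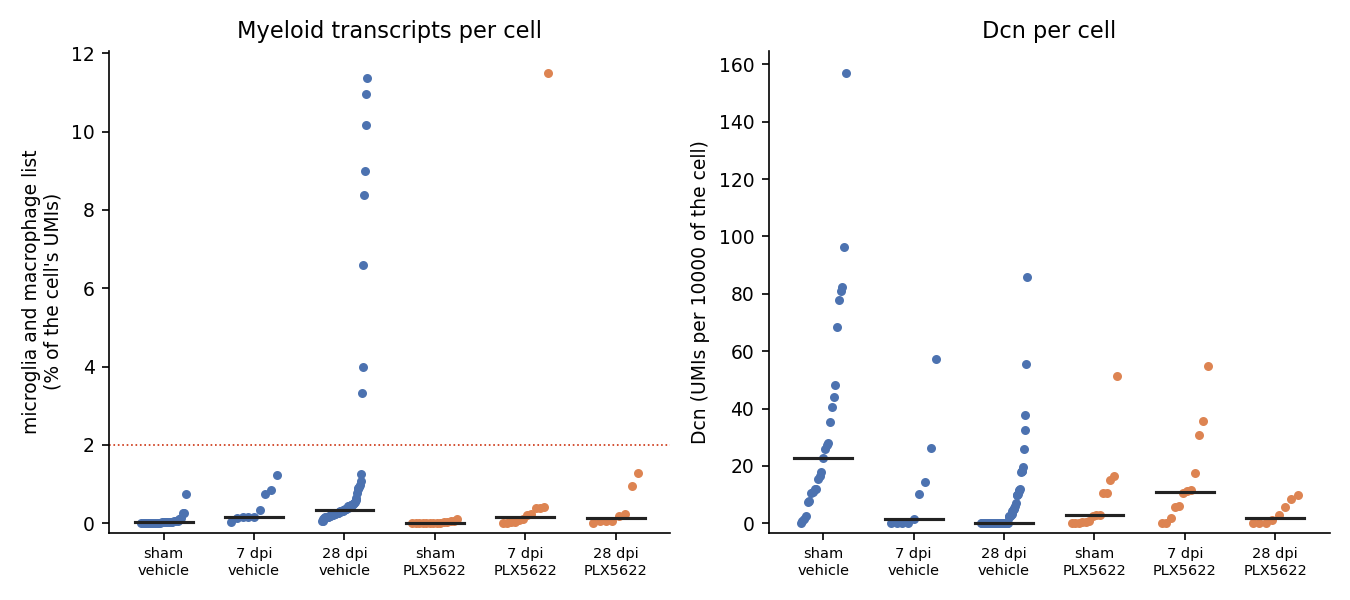
Each point is a cluster 13 cell, by library: the share of its UMIs that were of the microglia and macrophage list, in percent (dotted red line at 2%), and its Dcn UMIs per 10000; the bar is the library's median. The 8 cells above the line at 28 dpi on vehicle reached 11.4%, and the Dcn median was 22.8 in sham vehicle and 0 at 28 dpi on vehicle.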

How the data were processed

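Cells of whole spinal cord were profiled with 10x Genomics 3' chemistry. The deposited table holds raw UMI counts of 16003 genes in 21016 cells, made by the authors with Cell Ranger and Seurat on GRCm38/mm10 per the submitters' processing notes, and a second deposited table gives each cell's cluster. No mitochondrial gene is listed, and 4 of 6 libraries hold fewer cells than their labels name. Bulk libraries of the series were not used here.

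Cluster 13 was taken as deposited. UMI counts were summed per library and divided by the cells' total, ribosomal genes included. Shares carry Clopper-Pearson intervals, levels exact Poisson intervals and log2 ratios exact conditional binomial intervals, all at 95%. UMIs of 1 cell share its capture, so intervals are too narrow for differences between mice. With 1 library per condition no p-value was computed. A gene entered a comparison with at least 50 UMIs in both sides together and was counted at 2-fold, with a side at 0 set to 3 UMIs. Comparisons with fewer than 20 cells on a side were given for list genes. Thinning drew 1000 UMIs per cell. Doublets were the cells with the highest Scrublet (scanpy 1.11.5) scores, and they were kept in. Their number per library was preset from an expected 0.8% per 1000 cells.

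Genes named in the text came from 49 lists (25 functional, 24 of markers, 492 of 516 genes in the table), the top 20 genes over other clusters, or the 10 highest and 10 lowest per comparison with at least 5 UMIs on each side, and exceptions are stated. Some genes of the lists are not reported here. The members and lists were chosen with earlier results of these data known. Code was tested on simulated data. Intervals came from scipy 1.17.1 in Python 3.11.15 (pandas 2.3.3, numpy 2.4.6), and size factors from edgeR 4.0.16 and DESeq2 1.42.0 in R 4.3.3. Alternatives covered scaling, UMI minimum, cell weighting, depth, doublets and myeloid RNA.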

Additional observations from a re-analysis of the deposited data

Results flagged for a closer look

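The stress chaperone Hspb1 differed in opposite directions on the 2 diets. Its log2 ratio of 28 dpi over sham was 1.85 on vehicle (225 to 813 CPM) and -1.24 on PLX5622 (574 to 243 CPM). The difference between diets was not tested, since each condition is 1 library, and the 28 dpi PLX5622 level rests on 10 UMIs. With each cell weighted alike the PLX5622 ratio was 0.06.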

How the results depend on the processing

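Each condition is 1 pool of mice, so no alternative stands in for a replicate, and what follows bears on counting and cell choice. Depth limits the small libraries most: 8 to 12 cells stand behind 7 dpi and 28 dpi values other than 28 dpi vehicle, and a gene without UMIs could still reach 93.4 CPM at 7 dpi on vehicle. No paired analysis was possible because each condition has 1 library.

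The count minimum moved the numbers of genes at least 2-fold higher and lower the most. With 20 UMIs, 100 UMIs and no minimum they were 995 and 900, 341 and 222, and 1463 and 2576 for cluster 13 over cluster 12 (594 and 419 at 50 UMIs), and 194 and 571, 44 and 76, and 2041 and 1636 for 28 dpi over sham on vehicle (74 and 186). For list genes on PLX5622, 28 dpi over sham, higher genes numbered 13, 3 and 141 (7 at 50 UMIs), and for sham PLX5622 over sham vehicle (9 and 29) they were 19 and 50 with 20 UMIs and 43 and 104 with none, with 19 lower at 100. As shares of the list genes tested, the first were 7.10%, 3.45% and 40.3% (5.74%). The second (5.42% and 17.5%) were 8.09% and 21.3% with 20 UMIs and 11.5% and 27.8% with none, with 15.6% lower at 100.

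Choices of cells also moved counts. Cells with fewer than 3 microglia and macrophage UMIs left 1526 genes over cluster 12, of which 203 (13.3%) were higher and 172 (11.3%) lower. With all cells these shares were 11.3% and 8.01%. At 28 dpi on vehicle they gave 13 (5.0%) higher and 41 (15.8%) lower of 260 genes, beside 3.77% and 9.48% with all cells. For sham PLX5622 over vehicle they gave 3 and 7 of 90 list genes. Cells under 5000 UMIs, a choice made after the data were seen, gave 204 (15.2%) and 172 (12.8%) of 1346 genes over cluster 12. At 28 dpi on vehicle they gave 106 higher and 26 lower of 455 genes, which turned the balance of 74 and 186 of 1961. Without genes of myeloid RNA, also chosen then, 39 of 1853 (2.10%) were higher there. On PLX5622 at 28 dpi TMM and DESeq2 factors left 2 of 122 list genes higher and leaving out the deepest cell of each library (likewise) 3 of 104. Weighting each cell alike left 5 of 166 list genes higher for sham PLX5622 over vehicle. The share ratio moved to -0.21 without clusters 0 and 1, and cells with a small leucine-rich proteoglycan went from 81.5% to 100% unthinned and 55.6% at 3 UMIs in sham, and from 80.3% to 93.8% and 21.3% at 28 dpi. The cause was not tested in any of these beyond the smaller number of cells or genes each leaves.

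Among named genes past 2-fold, signs turned for the following, all in 28 dpi over sham. With fewer than 3 microglia and macrophage UMIs (11 and 6 cells) they were Igf2 (0.15), Col1a2 (0.60), Col3a1 (0.34), Igfbp6 (0.12), Fbln1 (0.12), Eln (1.09) and Timp1 (0.24). Under 5000 UMIs they were Col1a2 (0.094), Serpinf1 (0.61), Apod (0.13) and Col25a1 (-0.19), and on PLX5622 Hspb1 was 0.065 with each cell weighted alike. In both choices of cells a side with no UMI was set to 3 UMIs, so a turned sign can rest on that setting, which was not tested. Of the log2 ratios of named genes under the alternatives, 487 of 558 over cluster 12 and 444 of 552 at 28 dpi on vehicle stayed within the counting interval of the value with all cells. Fewer than 3 cells a side were left under 5000 UMIs on PLX5622, and with fewer than 3 microglia and macrophage UMIs at 28 dpi on PLX5622, so these gave no value.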
